A study of Mus musculus with 30 samples.

Results

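The small leucine-rich proteoglycans are secreted proteins of the connective tissue matrix. The 8 genes followed here are Dcn (decorin), Bgn (biglycan), Aspn (asporin), Lum (lumican), Fmod (fibromodulin), Prelp (proline and arginine-rich end leucine-rich repeat protein), Omd (osteomodulin) and Ogn (osteoglycin). They were taken by gene symbol, though with earlier results of these data known. They are 8 of the 36047 genes to which the transcript tables could be assigned. Bulk RNA-seq of NIH3T3-CG cells, a line of mouse embryonic fibroblasts, gave 30 libraries in 10 groups of 3. Cells transduced with Prrx1 were grown with Doxycycline (Dox), the inducer, or with no Doxycycline. Other cells were transfected with a plasmid for Prrx1 or Snai1, set against 1 shared control group, with a plasmid for Egr1 or Jun, set against another shared control group, or with a plasmid for Srebf2, set against its own control. All groups are the same line, and the labels explain neither the suffix CG nor the promoters, the time after delivery, the share of cells that took up a plasmid, or whether the transduced cells were 1 clone. Nor do they say whether replicates came from separate cultures. The p-values thus set group differences against the scatter between these libraries, and that scatter may be technical.

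In this family a bowed solenoid of leucine-rich repeats binds collagen, and most members also carry glycosaminoglycan chains or sulfated tyrosines. Dcn, Bgn and Aspn form class I of the family, Lum, Fmod, Prelp and Omd form class II, and Ogn belongs to class III. Decorin and lumican set the spacing and width of collagen fibrils, biglycan also signals through Toll-like receptors when released, and several members bind TGF-beta ligands. In fibroblasts, decorin and lumican are commonly used as markers of matrix-producing cells.

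Several of these genes are neighbours in the mouse genome (GENCODE M21 on mm10). Dcn (chromosome 10, 97479609 to 97518143, plus strand) and Lum (chromosome 10, 97565128 to 97572703, plus strand) lie 47.0 kb apart with no other protein-coding gene between them. Aspn (chromosome 13, 49544443 to 49567565), Omd (49582462 to 49592822) and Ogn (49608046 to 49624501) follow each other on the plus strand, 14.9 and 15.2 kb apart. These 3 genes lie within the span of the centromere protein gene Cenpp, which is on the other strand and shares 7 exonic bases with Aspn. Prelp (chromosome 1, 133910304 to 133921414, minus strand) and Fmod (chromosome 1, 134037254 to 134048277, plus strand) are 115.8 kb apart, and Bgn is on the X chromosome (73483602 to 73495933, plus strand). Prelp shares 350 exonic bases, 9.68% of its exons, with an antisense RNA gene, and the strand setting of the counting is not given in the sources used here. Of the 31-base stretches in their transcripts, 91.0% for Prelp, 93.54% for Omd and at least 99.78% for the other 6 genes occur in no other gene.

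The stretches just upstream of 3 genes are shown because these genes changed when Prrx1, a homeobox factor, was induced. Each holds the 250 bases before the gene start in RefSeq on GRCm38.p6, written 5′ to 3′ on the gene's strand. Capitals mark TAAT, the core letters of many homeodomain sites, on either strand (ATTA on the other), and matches may overlap.
Prelp, chr1:133921402-133921651, minus strand: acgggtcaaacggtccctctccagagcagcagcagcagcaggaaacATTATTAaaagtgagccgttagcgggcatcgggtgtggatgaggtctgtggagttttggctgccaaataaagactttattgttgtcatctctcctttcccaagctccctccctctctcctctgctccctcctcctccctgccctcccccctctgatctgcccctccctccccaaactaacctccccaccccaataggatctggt
Aspn, chr13:49544193-49544442, plus strand: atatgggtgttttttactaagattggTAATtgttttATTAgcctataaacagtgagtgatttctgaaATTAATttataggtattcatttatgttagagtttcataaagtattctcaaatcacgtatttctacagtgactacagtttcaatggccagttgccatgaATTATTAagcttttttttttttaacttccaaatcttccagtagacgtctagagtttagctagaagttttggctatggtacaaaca
Ogn, chr13:49607765-49608014, plus strand: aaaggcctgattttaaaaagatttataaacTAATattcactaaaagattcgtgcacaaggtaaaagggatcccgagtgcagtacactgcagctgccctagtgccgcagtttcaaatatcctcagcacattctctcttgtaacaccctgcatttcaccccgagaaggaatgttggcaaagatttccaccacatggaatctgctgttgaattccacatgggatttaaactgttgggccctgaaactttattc
The Aspn stretch held 6 matches of these 4 letters, the Prelp stretch 2 and the Ogn stretch 1. The letters are all A or T, and of the 3 stretches shown that of Aspn had the lowest share of G and C. Whether its matches were more than this composition gives was not tested. Such a short word is common. It was in 5 of the 6 members' stretches that could be read (Bgn, Aspn, Fmod, Prelp, Omd and Ogn, of which Bgn had none), and in 54.9% of 32851 stretches of the same length from all genes. The longer palindrome TAATTA, which contains the core, was in 0 of the 6 and in 4.84% of all stretches. The core was added to the search after that result was known. Both strands were also searched for CAGGTG (the Snai1 E-box, in 17.2% of all stretches), GCGTGGGCG (Egr1, 0.536%), TGANTCA (the AP-1 site of Jun, 6.75%) and TCACNCCAC (a sterol element of Srebf2, 1.05%). None of these occurred in the 6 stretches, which says only that the letters are not in these windows.

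Library totals ran from 7996355 to 37068611 estimated counts, and the 6 transduced libraries were the shallowest, at 7996355 to 17129632. Of 10 fibroblast markers, 9 were above a level of 1 in counts-per-million units (CPM) in every library and Fap was below it in every library, with a summed level of 15819 to 28440 CPM. The marker lists of other cell types summed to 0.31 to 165.88 CPM (epithelial), 7.56 to 22.89 CPM (immune), 2.9 to 26.74 CPM (endothelial), 119.7 to 444.8 CPM (cartilage and bone), 3.11 to 17.4 CPM (muscle) and 0.81 to 9.71 CPM (adipocyte). Each delivered factor was higher where it was delivered. Prrx1 averaged 3907 ± 182 CPM with Dox and 1001 ± 98.8 CPM without, and 15641 ± 2599 CPM after its plasmid and 570 ± 92.6 CPM in the control (SD, n = 3 each). Snai1 averaged 10765 and 88.2 CPM, Egr1 1725 and 176 CPM, Jun 4306 and 192 CPM, and Srebf2 2440 and 585 CPM in plasmid and control libraries. In bulk RNA, fewer cells expressing a gene and less of its RNA per cell cannot be told apart.

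Biglycan was the most abundant member in every library and carried 85.9 to 96.9% of the summed CPM of the 8 genes. Levels of different genes are compared per length, as CPM per kilobase of the main transcript. In the Prrx1/Snai1 control group this level was 824 for Bgn, 95.6 for Dcn, 17.4 for Lum, 6.73 for Ogn, 0.402 for Prelp, 0.203 for Aspn, 0.147 for Omd and 0.032 for Fmod. The transduced cells without Dox had another order below Bgn. There Ogn stood at 60.3, Dcn at 2.32, Omd at 1.19, Prelp at 0.540, Lum at 0.339 and Aspn at 0.232 CPM per kilobase.

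The transduced and the transfected libraries differed most in Dcn, Lum and Ogn. Dcn had 1.17 to 4.58 CPM in the 6 transduced libraries, with a median of 3.13, and 94.9 to 313 CPM in the 24 transfected ones, with a median of 133. Lum had 0.0904 to 1.29 CPM in the transduced libraries (1 to 19 counts) and 11.5 to 72.2 CPM in the transfected ones (328 to 1541 counts). Both neighbours on chromosome 10 were thus low in the same 6 libraries. Ogn went the other way, with 99.9 to 164 CPM in the transduced libraries and 7.56 to 43.2 CPM in the transfected ones. Omd, its neighbour, had 0.911 to 2.66 CPM in the transduced libraries and 0.102 to 0.857 CPM in the transfected ones. Aspn, which lies on the other side of Omd, overlapped, at 0.234 to 3.63 CPM in the transduced libraries and 0.302 to 3.28 CPM in the transfected ones. For Dcn, Lum, Ogn and Omd the ranges were apart. The summed levels of 3 marker lists were apart between the same libraries too, at 18.08 to 26.74 CPM (transduced) and 2.9 to 6.03 CPM (transfected) for endothelial, 10.23 to 17.4 and 3.11 to 5.38 CPM for muscle, and 119.7 to 153.4 and 221.28 to 444.8 CPM for cartilage and bone genes. Their part in these differences was not tested. Transduction, experiment and cell stock cannot be told apart here, and these levels were not tested across experiments.

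**Figure D1:**
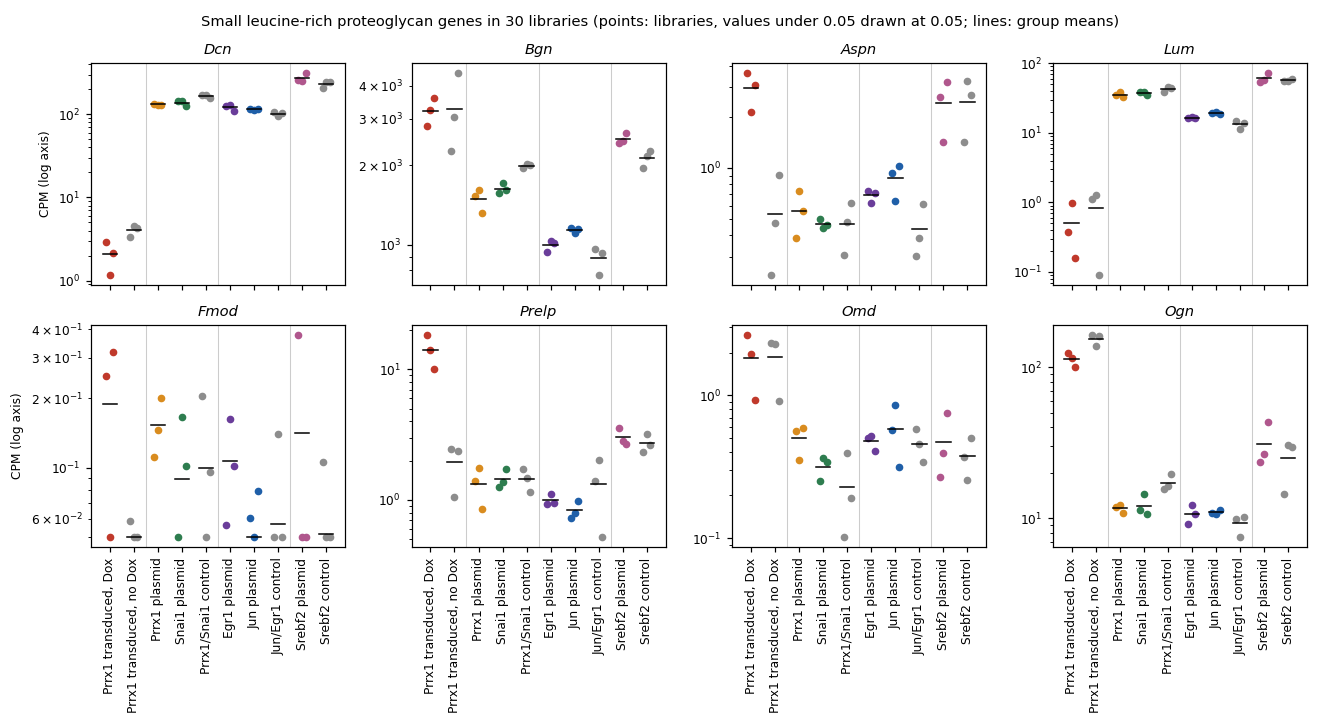
CPM of each gene on a log axis in 30 libraries, 1 panel per gene; points are libraries (values under 0.05 drawn at 0.05), lines are means of 3, and each factor's group stands left of its control. Dcn and Lum are lowest and Ogn and Omd highest in the 6 transduced libraries, and Prelp is highest in the Dox libraries at 10.2 to 18.4 CPM.

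The transfected groups also kept an order by experiment. Dcn averaged 275 ± 33.0 CPM with Srebf2 and 231 ± 21.0 CPM in its control, 131 ± 1.996 CPM with Prrx1, 138 ± 10.8 CPM with Snai1 and 168 ± 7.77 CPM in their control, and 122 ± 11.2 CPM with Egr1, 115 ± 2.84 CPM with Jun and 102 ± 6.42 CPM in theirs (SD, n = 3). Lum followed the same order of experiments, with 61.2 ± 9.63 and 57.1 ± 2.75 CPM in the Srebf2 and Srebf2 control groups, 35.5 to 42.5 CPM in the Prrx1 and Snai1 experiment and 13.4 to 19.3 CPM in the Egr1 and Jun experiment. Between neighbours in the order of Dcn, the library ranges overlapped for Snai1 with Prrx1, Prrx1 with Egr1 and Egr1 with Jun, and were apart for the others. In Lum they overlapped for Srebf2 with its control, for the Prrx1/Snai1 control with Snai1, for Snai1 with Prrx1, and for the transduced groups with each other. Aspn averaged 2.95 ± 0.75 CPM with Dox, 2.43 ± 0.92 CPM with Srebf2 and 2.47 ± 0.95 CPM in the Srebf2 control, which overlapped, and at most 0.867 CPM in the other 7 groups. In Ogn, the Srebf2 group (31.1 ± 10.6 CPM), its control (24.9 ± 9.11 CPM) and the Prrx1/Snai1 control (17.3 ± 2.11 CPM) overlapped as neighbours, and the 5 lower transfected groups lay within 9.26 to 12.2 CPM. Fmod, a fibril regulator of tendon, had 0 to 7 counts per library and 0 in 9 of the 30, so it passed the count filter in no comparison. Its level was at most 0.377 CPM.

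Biglycan needs its transcripts described before its changes. The gene total averaged 3210 ± 394 CPM with Dox and 3258 ± 1116 CPM without (SD, n = 3), and both means were above that of every transfected group. In these 6 libraries, 36.1 to 66.4% of the Bgn counts were assigned to Bgn-208, a processed transcript of 548 bases and 2 exons (73494892 to 73495926) that lies at the end of the gene. In the 24 transfected libraries Bgn-208 took at most 0.039%. Only 23 of its 518 stretches of 31 bases occur in no other Bgn transcript, so its reads are hard to separate from those of the full coding transcript Bgn-201.

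Bgn-201 alone had a different order. It stood at 1627, 1634 and 1429 CPM with Dox, and at 1429, 1564 and 1473 CPM without. These 6 values lie within the 753 to 2640 CPM of the transfected libraries. Bgn-208 itself had 1147, 1563 and 2124 CPM with Dox and 819, 1434 and 2968 CPM without, so most of the spread of Bgn between transduced libraries was in this short transcript. Because a short transcript weighs more per length, the gene's transcripts-per-million value (TPM) in these libraries reached 3782 to 12301, against 461 to 1734 in the transfected ones. What gave rise to the Bgn-208 counts was not tested. These tables do not show whether they are RNA of the Bgn gene, so the Bgn totals, TPM and share of the summed CPM in the transduced libraries carry that limit.

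**Figure D2:**
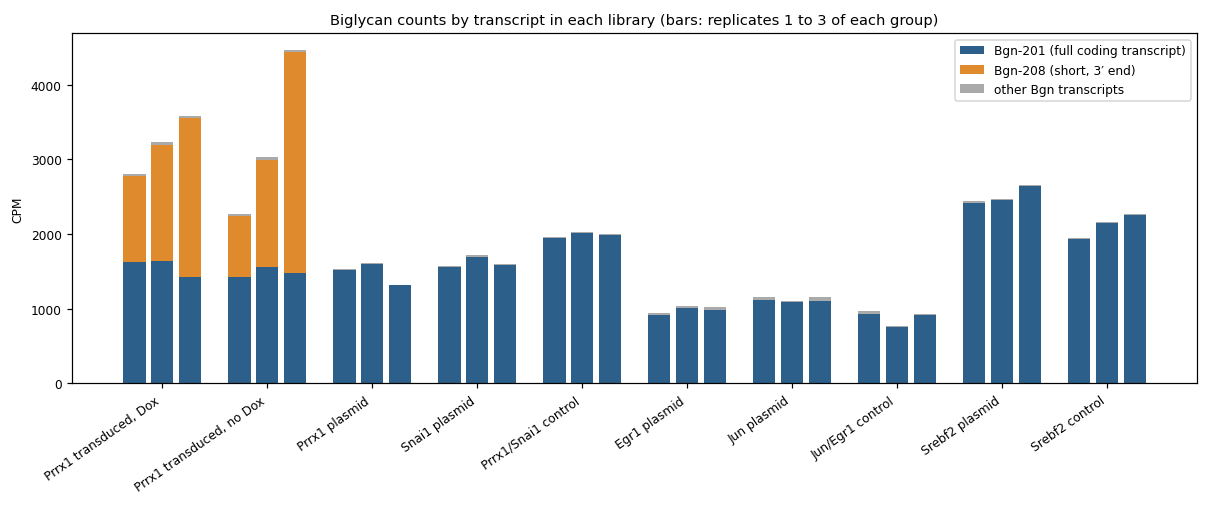
Biglycan CPM in each library as stacked bars from 0, split into Bgn-201, the short Bgn-208 and the other Bgn transcripts; each group has 3 bars, 1 per library. Bgn-208 is visible in the 6 transduced libraries, from 819 to 2968 CPM, while Bgn-201 lies between 1429 and 1634 CPM there.

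With Prrx1 induced by Dox, Prelp and Aspn were higher and Ogn was lower. Aspn passed the count filter through its Dox libraries, so its rise and the count of higher genes below carry that limit. No library analysed here is labelled as Dox without Prrx1, so Prrx1 and Dox itself cannot be told apart. Of the 8 genes, 7 passed the count filter, 2 were higher and 1 was lower by edgeR's quasi-likelihood test at a Benjamini-Hochberg adjusted p under 0.05. Of all 13633 genes tested, 6.19% were called, 3.45% higher and 2.74% lower. The groups did not overlap in CPM for 4 of the 7 genes, against 25.2% of all genes tested. Summed cartilage and bone markers were at 137.06 to 153.4 CPM with Dox and 119.7 to 128.62 CPM without, and their part was not tested.

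Prelp, a class II member that binds basement membrane and cartilage matrix, had 18.4, 14.0 and 10.2 CPM with Dox, against 2.45, 1.06 and 2.35 CPM without. All Dox libraries were above all libraries without Dox, and the counts behind them were 147, 144 and 128 with Dox and 42, 9 and 26 without. The log2 fold change was 2.77 ± 0.33 (SE), or 6.8-fold (edgeR adjusted p = 0.000427), which ranked 8 by size among the 471 genes that rose. The call held with any 1 library left out, at adjusted p from 0.000107 to 0.00547. The full transcript Prelp-201 held 140.0, 137.6 and 121.5 counts with Dox and 28.5, 0 and 25.9 without. The shorter Prelp-202 held 7.0, 6.4 and 6.5 counts with Dox and 13.5, 9.0 and 0.1 without. On TPM, which divides by these lengths, limma gave a smaller change of 1.52 on the log2(TPM + 1) scale, with an adjusted p of 0.0819, so the call was lost there.

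Aspn, a class I member that binds TGF-beta and BMP2 and restrains their signals, had 3.63, 2.14 and 3.10 CPM with Dox, against 0.234, 0.470 and 0.904 CPM without. These are 29, 22 and 39 counts with Dox and 4, 4 and 10 counts without, and the groups were apart. The log2 fold change was 2.47 ± 0.57, or 5.54-fold (edgeR adjusted p = 0.0251). The gene passed the count filter through its Dox libraries, and at these counts the call depended on which libraries were in the fit. Leaving out any 1 Dox library moved the adjusted p to 0.0808 to 0.134, and leaving out replicate 1 without Dox moved it to 0.0828. On TPM, limma gave an adjusted p of 0.218.

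Ogn, the class III member, had 124, 115 and 99.9 CPM with Dox, against 164, 139 and 162 CPM without. The groups were apart and the fall was small, at a log2 fold change of -0.48 ± 0.10, or 1.40-fold lower (edgeR adjusted p = 0.0166). The call was lost without Dox replicate 2 (adjusted p = 0.0896), without Dox replicate 3 (0.106), without replicate 3 of the cells without Dox (0.0744), with all 30 libraries in 1 fit (0.0879) and by limma on TPM (0.206).

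Dcn had 2.88, 1.17 and 2.14 CPM with Dox, against 3.39, 4.58 and 4.25 CPM without. The groups did not overlap, but the log2 fold change of -1.001 ± 0.39 did not pass the test (edgeR adjusted p = 0.185) at 12 to 58 counts per library. With all 30 libraries in 1 fit it did pass (-1.037, adjusted p = 0.00257). Lum had 0.375, 0.974 and 0.159 CPM with Dox, against 1.11, 1.29 and 0.0904 CPM without, and its groups overlapped (log2 fold change -0.76 ± 0.90, adjusted p = 0.707). Omd overlapped as well, at 2.66, 1.94 and 0.935 CPM with Dox and 2.35, 2.30 and 0.911 CPM without (-0.08 ± 0.54, adjusted p = 0.962). Bgn had a log2 fold change of -0.03 ± 0.25 (adjusted p = 0.967), and 0.06 ± 0.08 when Bgn-208 was left out (adjusted p = 0.756), an alternative chosen after seeing the data.

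**Figure D3:**
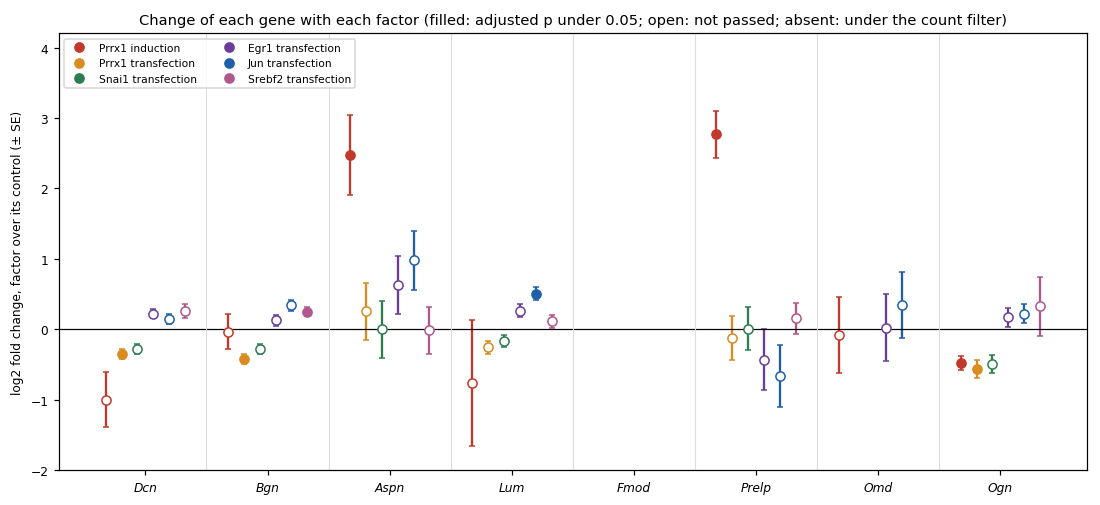
Log2 fold change of each gene, factor over its own control, with its SE, for 6 comparisons; filled points have an edgeR adjusted p under 0.05, open points did not pass, and genes under the count filter have no point. Prelp at 2.77 and Aspn at 2.47 with induced Prrx1 stand above all other points. Aspn passed the filter there through its Dox libraries and had 4 to 10 counts per library without Dox.

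Genes that act with these proteoglycans were followed in 5 lists, which were drawn up with earlier results of these data known. With Dox, 1 of 6 tested relatives in the family rose, 2 of 29 glycosaminoglycan and sulfation enzymes rose and 3 fell, 5 of 21 collagen fibril genes rose and 1 fell, 2 of 17 signalling partners rose and 2 fell, and 2 of 9 proteases fell, where 6.19% of all genes tested were called, 3.45% higher and 2.74% lower. Their median log2 fold changes were 0.03, -0.02, 0.10, 0.05 and -0.26 in that order, beside -0.01 over all genes tested. The relative was Podnl1 (podocan-like 1), at 114 ± 9.48 CPM with Dox and 74.5 ± 12.7 CPM without (0.60 ± 0.12, adjusted p = 0.0101). Among the enzymes that build chondroitin and dermatan sulfate, Chst11 fell (log2 fold change -0.57 ± 0.10, adjusted p = 0.00422) and Chst12 rose (0.59 ± 0.13, adjusted p = 0.0209). B4galt1 and B4galt4, galactosyltransferases, fell by 0.45 and 0.76 on the log2 scale. The matricellular Thbs2 averaged 443 ± 8.05 CPM with Dox and 200 ± 1.87 CPM without (1.13 ± 0.07, adjusted p = 6.91e-06). Col5a2, a chain of the collagen that limits fibril width, and Tnxb, a tenascin, each rose by 0.97, while Col3a1 averaged 265 ± 24.5 CPM with Dox and 504 ± 12.8 CPM without (-0.95 ± 0.08, adjusted p = 3.49e-05).

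Of the ligands and receptors that these proteoglycans bind, the receptor Tgfbr1 rose by 0.82 ± 0.14 and the ligand Tgfb3 by 0.47 ± 0.12, and the ligands Tgfb1 and Tgfb2 fell by 0.57 and 0.60 on the log2 scale. Their adjusted p-values by edgeR were 0.00426, 0.0399, 0.0356 and 0.0296. The proteases that fell were Adamts5, an aggrecanase (157 ± 6.69 CPM with Dox and 219 ± 13.8 CPM without), and Htra1, a serine protease (5.21 ± 0.89 CPM with Dox and 11.2 ± 1.57 CPM without). No list was tested as a set.

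After the Prrx1 plasmid, 3 of the 6 genes that passed the filter were lower and 0 were higher, where 3.0% of 13110 genes were called and 1.06% were lower. Omd and Fmod did not pass the filter. Groups were apart for 3 of the 6, against 19.7% of all genes. Summed epithelial markers were at 2.86 to 3.37 CPM with the plasmid and 2.1 to 2.44 CPM in the control. Immune markers were at 8.38 to 9.92 and 10.98 to 14.31 CPM. The part of both lists was not tested. Bgn had 1525, 1610 and 1321 CPM with the Prrx1 plasmid, against 1955, 2027 and 1997 CPM in the control. All Prrx1 libraries were lower, by a log2 fold change of -0.42 ± 0.07, or 1.34-fold (edgeR adjusted p = 0.00766), and the call held with any 1 library left out (adjusted p from 0.000468 to 0.0337). It was lost with all 30 libraries in 1 fit (adjusted p = 0.118) and by limma on TPM without a filter (0.0641). Dcn had 134, 130 and 130 CPM with the plasmid, against 173, 172 and 159 CPM in the control, again without overlap. Its log2 fold change was -0.35 ± 0.07, or 1.28-fold lower (adjusted p = 0.0151), and the adjusted p was 0.0581 to 0.0771 without any 1 Prrx1 library and 0.0598 by limma without a filter.

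Ogn had 11.9, 12.2 and 10.8 CPM with the Prrx1 plasmid, against 15.6, 16.5 and 19.6 CPM in the control. The groups were apart and the log2 fold change was -0.56 ± 0.13, or 1.48-fold lower (adjusted p = 0.0332). This call was lost without any 1 library other than control replicate 1, at adjusted p from 0.0542 to 0.146, with all 30 libraries in 1 fit (0.261) and by limma on TPM (0.105). Lum, Prelp and Aspn overlapped their controls and did not pass. Lum had a log2 fold change of -0.26 ± 0.09 (adjusted p = 0.133), Prelp of -0.12 ± 0.31 (0.894) and Aspn of 0.25 ± 0.41 (0.814). Control replicate 1 weighed most on this experiment. Without it, 2639 genes were called in place of 393, and Lum was called too (-0.32, adjusted p = 0.00551).

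Both ways of raising Prrx1 were then compared in 1 fit of all their 12 libraries as the difference between the Dox effect and the plasmid effect. Prelp was the 1 gene of 7 whose effects differed by the test, where 4.02% of 15218 genes did and 1.98% were higher. Prelp had 1.39, 1.74 and 0.856 CPM with the plasmid, against 1.74, 1.48 and 1.15 CPM in its control, beside the rise with Dox given above. The difference was 2.89 ± 0.49 on the log2 scale (edgeR adjusted p = 0.00249), and it was called with any 1 of the 12 libraries left out (adjusted p from 0.00182 to 0.0127). On TPM, limma gave 1.32 and an adjusted p of 0.119. For Aspn the difference was 2.22 ± 0.76, which did not pass after adjustment (unadjusted p = 0.0097) but did with all 30 libraries in 1 fit (adjusted p = 0.0271), for Dcn -0.65 ± 0.24 (adjusted p = 0.165) and for Ogn 0.08 ± 0.16 (adjusted p = 0.874). Lum (-0.55 ± 0.68) and Omd (-1.20 ± 0.83) did not pass either. The Aspn value carries the filter limit of its Dox effect. Aspn had 22 to 39 counts per library with Dox and 4 to 10 without, and 7 to 15 with the plasmid and 6 to 13 in its control. Omd had not passed the filter in the plasmid experiment, at 7.27 to 11.8 counts with the plasmid and 2 to 8.27 in the control. It was tested here through its transduced libraries. For Bgn it was 0.39 ± 0.26 (adjusted p = 0.511). Without Bgn-208, an alternative chosen after seeing the data, it was 0.47 ± 0.11 (adjusted p = 0.0276). Without replicate 3 of the cells without Dox it was 0.67 (adjusted p = 0.0384). Of 21 collagen fibril genes tested, the difference was higher in 5 and lower in 1, and of 19 signalling partners higher in 2 and lower in 1. Those with the smallest adjusted p among the collagen fibril genes were Thbs2 (1.10 ± 0.13, adjusted p = 8.5e-05), Col5a2 (0.96), Loxl3 (1.10) and Col5a1 (0.69). Among the signalling partners they were P2rx7 (-3.62 ± 0.93), Ccn4 (0.63) and Tgfb3 (0.56). The SE of P2rx7 was wide, beside 0.17 for its plasmid effect alone. Its level and Dox effect in the transduced cells are not reported here, so the size of its difference is uncertain. Podnl1 (0.68, 1 of 7 relatives), Chst11 (-0.57, 1 of 30 enzymes) and Htra1 (-1.08, 1 of 11 proteases) differed as well. The level of Prrx1, the delivery and the cells differed between the experiments together and cannot be told apart.

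**Figure D4:**
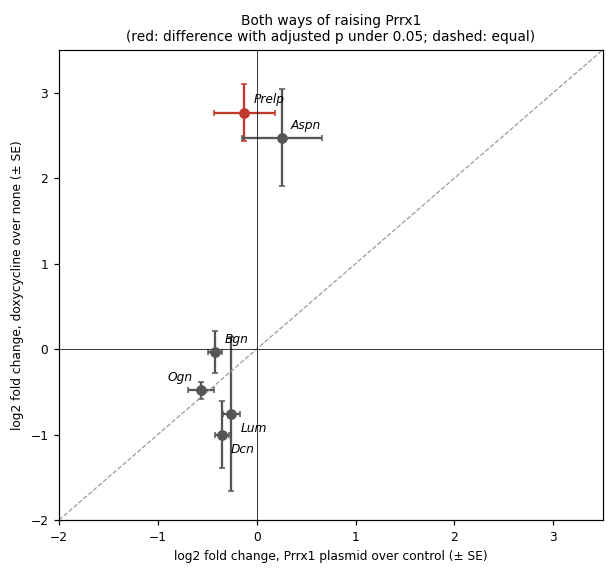
Log2 fold change with Dox (vertical) against that with the Prrx1 plasmid (horizontal), each with its SE, for the 6 genes tested in both; the dashed line marks equal change. Prelp, in red, is the gene whose difference passed the test, at 2.77 with Dox and -0.12 with the plasmid, while Ogn lies near the line at -0.48 and -0.56.

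The same lists were counted for the Prrx1 plasmid, where 3.0% of all genes were called. None of 7 tested relatives, 29 enzymes and 9 proteases was called by edgeR. At an unadjusted p under 0.05 there were 1, 0 and 3 of them, beside 2260 of all 13110 genes. Of 20 collagen fibril genes 1 rose, Col11a2 (12.5 ± 0.51 CPM with the plasmid and 7.41 ± 1.71 CPM in the control, adjusted p = 0.0143). Of 18 signalling partners 2 rose. P2rx7, an ATP receptor through which biglycan can signal, averaged 19.96 ± 4.29 CPM with the plasmid and 5.14 ± 0.58 CPM in the control (1.96 ± 0.17, adjusted p = 5.61e-05). Lrp1, an endocytic receptor for decorin, rose by 0.29 ± 0.07 (adjusted p = 0.0490).

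With Snai1, a repressor of epithelial genes, 0 of the 6 genes tested passed edgeR's test, where 1.62% of genes did. At an unadjusted p under 0.05 there were 3, beside 2133 of all 13110 genes. DESeq2 called 3 after adjustment, beside 546 of all 13110 genes. Dcn had 145, 144 and 126 CPM with Snai1, against 173, 172 and 159 CPM in the control, and Bgn had 1569, 1712 and 1603 CPM with Snai1, against 1955, 2027 and 1997 CPM. Ogn had 11.3, 14.5 and 10.7 CPM with Snai1, against 15.6, 16.5 and 19.6 CPM. These are the 3 genes whose groups were apart, against 21.1% of all genes. Their log2 fold changes were -0.28 ± 0.07 for Dcn, -0.28 ± 0.07 for Bgn and -0.50 ± 0.13 for Ogn, with edgeR adjusted p of 0.0635, 0.0671 and 0.0724. Without control replicate 1, which called 3062 genes in place of 212, all 3 passed (adjusted p = 0.00391, 0.00648 and 0.00286), and so did Lum (0.0401). Ogn also passed without Snai1 replicate 2 (0.0469).

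The Snai1 and Prrx1 comparisons share their 3 control libraries, so their values are set side by side only, and the plasmids were compared directly. In Snai1 against Prrx1 libraries, 0 of 6 genes passed edgeR's test (0.252% of all genes did). At an unadjusted p under 0.05 there were 0, beside 716 of all 13110 genes. DESeq2 also called 0, beside 44 of all 13110 genes. None of the 6 had groups apart, against 17.1% of all genes. The direct log2 differences were 0.08 ± 0.07 for Dcn, 0.14 ± 0.07 for Bgn and 0.07 ± 0.13 for Ogn. Among partners in Snai1 against control libraries, Lrp1 rose (0.33 ± 0.07, edgeR adjusted p = 0.0373), 1 of 18 signalling partners beside 1.62% of all genes. Of the 7 relatives, 29 enzymes, 20 collagen fibril genes and 9 proteases tested, edgeR called none. At an unadjusted p under 0.05 there were 1, 4, 4 and 2 of them, beside 2133 of all 13110 genes. P2rx7 averaged 4.86 ± 0.90 CPM with Snai1 and 19.96 ± 4.29 CPM with Prrx1 (-2.04 ± 0.17, adjusted p = 4.83e-05).

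With Egr1, an immediate early zinc finger factor, 0 of 7 genes tested passed edgeR's test, where 0.323% of genes did. Unadjusted, 2 had a p under 0.05, beside 1488 of all 14539 genes. DESeq2 called 0, beside 210 of all 14539 genes, and limma on TPM called 2, beside 1172 of 12414. Dcn had 125, 131 and 110 CPM with Egr1, against 108, 94.9 and 103 CPM in the control, and Lum had 16.2, 17.0 and 16.5 CPM with Egr1, against 14.97, 11.5 and 13.7 CPM. Aspn had 26, 23 and 21 counts with Egr1, or 0.733, 0.621 and 0.713 CPM, against 0.302, 0.385 and 0.614 CPM in the control. These 3 genes had groups apart, against 17.9% of all genes. Their log2 fold changes were 0.22 ± 0.07, 0.26 ± 0.09 and 0.63 ± 0.42, with adjusted p of 0.272, 0.332 and 0.635. Without Egr1 replicate 3, Dcn passed (0.30, adjusted p = 0.0357). Summed epithelial markers were at 9.06 to 165.88 CPM with Egr1 and 8.95 to 12.46 CPM in the control, adipocyte markers at 2.47 to 9.71 and 1.92 to 2.31 CPM, endothelial markers at 4.51 to 4.9 and 3.54 to 3.79 CPM, and muscle markers at 4.82 to 5.38 and 4.08 to 4.48 CPM. Fibroblast markers were higher too, at 20218 to 20560 CPM with Egr1 and 16620 to 18883 CPM in the control. The part of these lists in the values of the members was not tested.

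With Jun, a subunit of AP-1, Lum was the 1 of 7 tested genes that rose, where 0.956% of genes were called and 0.454% were higher. Lum had 19.2, 19.8 and 19.0 CPM with Jun, against 14.97, 11.5 and 13.7 CPM in the control. The groups were apart, at a log2 fold change of 0.51 ± 0.09, or 1.42-fold (edgeR adjusted p = 0.0225). Leaving out control replicate 1 kept this call (adjusted p = 0.0227), and leaving out any of the other 5 libraries lost it (0.0515 to 0.114), as did a fit of all 30 libraries (0.51, adjusted p = 0.106). Groups were apart for 5 of the 7 genes, against 23.6% of all genes. Bgn had 1151, 1106 and 1149 CPM with Jun, against 961, 767 and 929 CPM in the control (0.34 ± 0.08, adjusted p = 0.0723, called by DESeq2 at 0.000271, and by edgeR at 0.0463 without control replicate 1). Aspn had 0.937, 0.639 and 1.03 CPM with Jun (0.98 ± 0.42, adjusted p = 0.289), above its 3 control libraries. Dcn and Ogn were also apart, with log2 fold changes of 0.15 ± 0.07 and 0.22 ± 0.13 and adjusted p of 0.339 and 0.452. Summed epithelial markers were lower with Jun, at 2.33 to 6.23 CPM with Jun and 8.95 to 12.46 CPM in the control. Immune markers (10.19 to 11.06 and 11.2 to 22.89 CPM) and endothelial markers (3.25 to 3.33 and 3.54 to 3.79 CPM) were lower too. Fibroblast markers were higher, at 20379 to 21801 CPM with Jun and 16620 to 18883 CPM in the control. The part of these lists was not tested.

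Jun and Egr1 share their controls as well. Compared directly, Jun against Egr1 libraries, 0 of 7 genes passed edgeR's test (0.44% of all genes did). DESeq2 called 0, beside 229 of all 14539 genes. At an unadjusted p under 0.05 there were 2, beside 1712 of all 14539 genes. Those were Bgn (0.21 ± 0.08, adjusted p = 0.344) and Lum (0.24 ± 0.09, adjusted p = 0.336), whose groups were apart, 2 of 7 against 17.4% of all genes. Of the listed relatives, Ecm2, a neighbour of Aspn, averaged 1.35 ± 0.40 CPM with Jun and 3.62 ± 0.894 CPM with Egr1 (-1.40 ± 0.28, adjusted p = 0.0488). Among partners in Jun against control libraries, Fn1, fibronectin, rose (11913 ± 633 CPM with Jun and 9466 ± 779 CPM in the control, adjusted p = 0.0388), as did Plod2, a collagen lysyl hydroxylase (89.0 ± 2.73 CPM with Jun and 73.7 ± 5.17 CPM in the control, adjusted p = 0.0474), 2 of 24 collagen fibril genes beside the 0.956% of all genes called. P2rx7 fell with Jun, at 4.07 ± 0.83 CPM with Jun and 15.7 ± 3.86 CPM in the control (-1.97 ± 0.19, adjusted p = 0.0015). With Egr1, edgeR called none of the genes of the 5 lists. At an unadjusted p under 0.05 there were 2 of 6 relatives, 2 of 29 enzymes, 2 of 24 collagen fibril genes, 4 of 20 signalling partners and 2 of 11 proteases. Over all genes it was 1488 of 14539.

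With Srebf2, the main activator of sterol synthesis genes, Bgn was the 1 of 6 tested genes that rose, in a comparison where 17.3% of genes were called and 8.63% were higher. Bgn had 2437, 2472 and 2651 CPM with Srebf2, against 1952, 2166 and 2273 CPM in the control. The groups were apart, the log2 fold change was 0.25 ± 0.06, or 1.19-fold (edgeR adjusted p = 0.0110), and the call held with any 1 library left out (adjusted p from 0.0118 to 0.0462). It was lost with all 30 libraries in 1 fit (adjusted p = 0.375) and by limma on TPM without a filter (0.0887). Dcn had 257, 254.97 and 313 CPM with Srebf2, against 207, 242 and 245 CPM in the control. It was the other gene with groups apart, 2 of 6 against 35.4% of all genes, and did not pass (0.26 ± 0.10, adjusted p = 0.107, called by DESeq2 at 0.0153). Lum (0.11 ± 0.10), Ogn (0.33 ± 0.42), Prelp (0.16 ± 0.22) and Aspn (-0.02 ± 0.33) overlapped their controls, with adjusted p of 0.480, 0.666, 0.666 and 0.978. Summed cartilage and bone markers were at 221.28 to 229.41 CPM with Srebf2 and 236.32 to 262.93 CPM in the control, and their part was not tested.

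Among the partners, the collagen crosslinking enzyme Lox rose with Srebf2 (3654 ± 194 CPM with Srebf2 and 2886 ± 320 CPM in the control, adjusted p = 0.00601), and Col11a2 fell (8.67 ± 1.42 CPM with Srebf2 and 13.7 ± 1.24 CPM in the control, adjusted p = 0.00204). Beside the 17.3% of all genes called, 2 of 20 collagen fibril genes rose and 3 fell, including Loxl3 and Plod3, which fell by 0.20 and 0.17 on the log2 scale. Of 18 signalling partners 4 rose and 1 fell. Ccn4, the TGF-beta coreceptor Tgfbr3 and the receptor Met rose by 0.29, 0.24 and 0.23. P2rx7 had the largest of these changes, at 1.08 ± 0.12 CPM with Srebf2 and 9.14 ± 0.955 CPM in the control (-3.06 ± 0.185, adjusted p = 1.85e-08). Podnl1 fell, at 72.9 ± 5.51 CPM with Srebf2 and 88.3 ± 1.85 CPM in the control (adjusted p = 0.00611). Of 28 enzymes only Chpf2 was called, lower by 0.31 on the log2 scale, but 58.12% of its 31-base stretches are its own, so its value is uncertain.

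The genes whose pattern was most like each member were the closest protein-coding ones among 12053 genes tested in all 4 experiments, by Pearson's r of log2(CPM + 0.1) over 30 libraries, each centred on the mean of its experiment. Libraries of 1 group share their treatment, and shifts between groups of an experiment remain after centring, so these values are a description. Prelp was closest to Lxn (r = 0.883, Spearman's rho = 0.669), a carboxypeptidase inhibitor, Adgrg1 (0.879, rho = 0.599), an adhesion receptor, and Sod3 (0.869, rho = 0.604), an extracellular superoxide dismutase. Aspn was closest to Il6st (0.868, rho = 0.766), the shared receptor of the IL-6 family, Irs1 (0.846, rho = 0.687, with 69.34% unique stretches) and Cemip (0.841, rho = 0.761), a hyaluronan-degrading protein. Dcn was closest to Cp (0.848, rho = 0.786), ceruloplasmin, then Fam110c (0.811, rho = 0.560) and Ccdc155 (0.809, rho = 0.482). Ogn was closest to Cyp2c55 (0.848, rho = 0.773), Eif3e (0.841, rho = 0.733, with 89.04% unique stretches) and Cav1 (0.840, rho = 0.788), caveolin. Bgn was closest to Exoc6b (0.767, rho = 0.766), Emp2 (0.766, rho = 0.751) and Calu (0.762, rho = 0.818, with 89.88% unique stretches). Lum was closest to AC133103.7 (0.798, rho = 0.514), Trappc6a (0.781, rho = 0.352) and Znrd1 (0.774, rho = 0.503). Between members, r was 0.599 for Prelp with Aspn (rho = 0.329), 0.561 for Ogn with Dcn (rho = 0.756), 0.496 for Ogn with Bgn (rho = 0.528) and -0.632 for Prelp with Dcn (rho = -0.374). For the neighbours Dcn and Lum r was 0.009 and rho 0.426, so their likeness depended on the measure. Lum had only 1 to 19 counts per transduced library, at 0.0904 to 1.29 CPM. All r values of Lum, also those with its closest genes, carry that limit. Aspn had 4 to 69 counts per library, Prelp 9 to 147, and Dcn 12 to 58 in the transduced libraries. The r values of these 3 genes are limited by low counts too.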

How the data were processed

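RNA from 30 libraries of NIH3T3-CG cells was sequenced. The authors deposited, per the file headers, estimated counts and TPM per transcript for each library. The submitters' processing notes name kallisto 0.43.0 and mm10. Annotation release and strand are not given in the sources used here. Of 118491 targets, 116816 matched a GENCODE M21 transcript, 1673 (0.605 to 0.694% of counts) found no match, and 2 were sequences added by the authors. Estimated counts were summed per gene and rounded. These were scaled by library total to counts-per-million units (CPM), given with the standard deviation (SD) over 3 libraries.

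All genes were tested two-sided by robust quasi-likelihood fits (edgeR 4.0.16 under R 4.3.3) after TMM scaling and filterByExpr at a minimum count of 10 and total of 15. A Benjamini-Hochberg adjusted p under 0.05 was called. Libraries of 1 experiment were fitted together, without a replicate term. The prior count behind log2 fold changes was 0.125. Standard errors (SE) were derived from the F statistic. The alternatives were DESeq2 1.42.0, limma 3.58.1 on log2(TPM + 1) and log2(TPM + 0.1), other scaling, filters and fits, a replicate block and leaving out each library. The pipeline was tested on simulated data. Replicates of each group differed by more than sampling noise.

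The members and lists were chosen with earlier results of these data known. The genes named are the 8 members, the delivered factors, up to 4 called genes per list and comparison by smallest adjusted p, and the 3 genes most like each member. RefSeq held an upstream stretch for 6 of 8 members.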

Additional observations from a re-analysis of the deposited data

Results flagged for a closer look

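Prelp was picked out because its change with induced Prrx1 differed from its change after the Prrx1 plasmid, by a test of the difference itself. The Dox effect was 2.77 ± 0.33 and the plasmid effect -0.12 ± 0.31 on the log2 scale, which differ by 2.89 ± 0.49 (edgeR adjusted p = 0.00249). Prelp averaged 14.2 ± 4.12 CPM with Dox and 1.95 ± 0.78 CPM without, and 1.33 ± 0.45 CPM with the plasmid and 1.45 ± 0.30 CPM in its control (SD, n = 3 each). Prrx1 itself was at 3907 CPM with Dox and at 15641 CPM after the plasmid. Every Dox library was above every other transduced library, and the plasmid libraries overlapped their controls. Whether the delivery or the cells bear on this difference was not tested.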

How the results depend on the processing

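The counts of called members moved with the tool, the filter, the libraries in the fit and single libraries. With Prrx1 induced, 3 members were called by edgeR (Prelp, Aspn and Ogn), 3 with all 30 libraries (Dcn in place of Ogn) and 0 by limma on log2(TPM + 1), on log2(TPM + 0.1) and without a TPM filter. Of all genes, these settings called 844 of 13633, 2728 of 16119, 162 of 13943, 156 of 13943 and 67 of 23790. For the Prrx1 plasmid, 3 became 0 by limma without a TPM filter, which changes both tool and filter (limma with the filter called 2), and 1 with all 30 libraries in the fit. All genes called there were 234 of 22897, 443 of 12014 with the filter and 335 of 16119. For Snai1, 0 became 3 by DESeq2 (546 of 13110 genes), 3 with no count filter (440 of 22730) and 1 by limma on log2(TPM + 0.1) (373 of 12014). For Egr1, 0 became 2 by limma on log2(TPM + 1) (1172 of 12414 genes) and 3 on log2(TPM + 0.1) (1277 of 12414). For Jun, 1 became 2 by DESeq2, 2 with a filter of 5 CPM in 3 libraries, 3 by limma on either TPM scale, 2 by limma without a filter and 0 with all 30 libraries. Of all genes, these called 520 of 14539, 252 of 10348, 2203 and 2220 of 12414, 1038 of 25184 and 60 of 16119. For Srebf2, 1 became 2 by DESeq2 (2001 of 12730 genes), 2 with no filter (2513 of 21124), 0 by limma without a filter (169 of 21261) and 0 with all 30 libraries (568 of 16119). The difference between both Prrx1 effects was called for 1 member, for 0 by limma on each TPM scale and without a filter, and for 2 with all 30 libraries. Of all genes, these alternatives called 245 and 227 of 13275, 175 of 25410 and 1853 of 16119. The cause of these shifts in called members was not tested. On TPM, limma moved the median of all genes by 0.148 to 0.157 for Egr1 and 0.145 to 0.156 for Jun, and 98.4% and 97.8% of its calls were higher, against 63.8% and 47.5% by edgeR. That share was 70.4% against 55.8% for induced Prrx1 and 66.5% against 49.9% for Srebf2.

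Leaving out 1 library gave 1 to 3 called members for induced Prrx1, 1 to 4 for the Prrx1 plasmid, 0 to 4 for Snai1 (4 without control replicate 1), 0 to 1 for Egr1, 0 to 2 for Jun, 1 for Srebf2 and 1 to 2 for the difference. Genes called ranged over 335 to 1250 (844 with every library), 106 to 2639 (393), 46 to 3062 (212), 10 to 102 (47), 29 to 94 (139), 996 to 2329 (2204) and 299 to 1118 (612) in that order. Across the other settings they ranged over 67 to 2728, 141 to 670, 64 to 546, 23 to 1277, 60 to 2220, 169 to 2513 and 175 to 1853.

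Same-numbered libraries did not deviate together (r from -0.185 to 0.094, with 0 pairs over 0.1). With 3 libraries per group this cannot exclude a pairing by number, and a replicate block changed some calls. With a replicate block 2 members were called for Snai1, 0 for Jun and 2 for Srebf2, and 843 genes for induced Prrx1, 401 for the Prrx1 plasmid, 290 for Snai1, 23 for Egr1, 71 for Jun and 2295 for Srebf2. Dcn (adjusted p = 0.0404) and Bgn (0.0479) with Snai1 and Dcn with Srebf2 (0.00471) passed under the block, and Lum with Jun had 0.0582 at 0.51. The block turned Bgn with induced Prrx1 to 0.0075 and Aspn with Snai1 to 0.0284.

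The signs that turned belonged to members that had not passed. By limma on TPM, Bgn with induced Prrx1 was 0.12 in each version, Omd was 0.0596 on log2(TPM + 1) with and without a filter and 0.11 on log2(TPM + 0.1), Aspn with Srebf2 was 0.0262 on log2(TPM + 1) with and without a filter and 0.0422 on log2(TPM + 0.1), and Lum in the difference was 0.0757 on log2(TPM + 1) with and without a filter. Without a TPM filter, Prelp was 0.21 with the Prrx1 plasmid, 0.17 with Egr1, 0.0353 with Jun and -0.0442 in Snai1 against Prrx1. With Snai1, Prelp was -0.0008 with no count filter and -0.0025 with all 30 libraries. Without Bgn-208, Bgn with induced Prrx1 was 0.0555, an alternative chosen after seeing the data. Leaving out 1 library turned Bgn (-0.22 to 0.25) and Omd (-0.41 to 0.24) with induced Prrx1, Prelp with the Prrx1 plasmid (-0.37 to 0.11), Aspn (-0.21 to 0.25) and Prelp (-0.14 to 0.17) with Snai1, Omd with Egr1 (-0.15 to 0.24) and Jun (-0.0502 to 0.63), Aspn (-0.29 to 0.26) and Lum (-0.0255 to 0.20) with Srebf2, Ogn in the difference (-0.0206 to 0.15), Prelp (-0.11 to 0.38) and Ogn (-0.0805 to 0.15) in Snai1 against Prrx1, and Omd (-0.0744 to 0.61) and Ogn (-0.05 to 0.16) in Jun against Egr1. Over all members and comparisons, the other settings kept 439 results, lost 25 calls, gained 26 and turned 19 signs. Leaving out a library kept 338 results, lost 20 calls, gained 9 and turned 28 signs. Kept means the same direction and side of the threshold, so a member called in neither fit counts as kept. Depth limits Fmod, Omd, Aspn and, in transduced cells, Lum and Dcn, which had 0 to 69 counts per library there. Prelp had 9 to 42 counts per library without Dox and 17 to 66 in the transfected libraries, and is limited there too.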

Other observations

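Of the 11 other family genes on the list, Podnl1 and Tsku, an inhibitor of Wnt and BMP signals, were the ones with more than 10 CPM. Podnl1 had group means of 61.7 to 114 CPM and Tsku of 16.8 to 30.5 CPM. Kera, Epyc and Nepn had at most 0.136 CPM in any library. Kera and Epyc follow Lum on chromosome 10.

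In Dcn, the transduced libraries also differed in which transcript took the counts. Dcn-201 held 97.8 to 100% of the Dcn counts without Dox and 97.3 to 99.7% in the transfected libraries. With Dox it held 94.5, 0 and 28.8%, at 23, 12 and 27 counts in all, too few to say how the transcripts differed.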
